A study of Homo sapiens with 28 samples.

Results

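Of 32836 regions of mouse bone marrow that carried a peak of the histone mark H3K27ac in at least 1 of 8 mice, 1117 were held by all 3 WT mice and by none of 5 DKOITD mice. Regions were the merged peaks of the 8 H3K27ac libraries, and a library held a region when its own merged peaks covered at least 10% of it. The members are thus 3.4% of all regions and 9.4% of the 11886 regions that all 3 WT mice held. The opposite pattern, 5 DKOITD mice and no WT mouse, was found at 162 regions, or 0.493%. The members were chosen by the H3K27ac peaks themselves, so all H3K27ac values below are a description, with no test.

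All 8 mice were Ezh2(fl/fl) and Runx1(fl/fl), so the WT mice carried both floxed genes as well. The 5 DKOITD mice were in addition Rag1(Cre/+) and Flt3(ITD/+), and their total bone marrow was used. The 3 WT mice were Rag1(+/+) and Flt3(+/+), and CD117 microbeads had been used to select Kit-positive cells from their marrow. All were of strain C57BL/6, and their ages and disease stages are not given in the sources used here. Cre from the Rag1 gene acts in cells that have expressed Rag1, which leaves other marrow cells with intact floxed genes, while the internal tandem duplication of the receptor gene Flt3 is in every cell. Cell preparation went with genotype, so their parts cannot be told apart in any comparison. In whole marrow, fewer cells of a type and less of the mark per cell cannot be told apart either. The label of the regions holds for peaks only. The absence of a called peak is not absence of the mark.

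H3K27ac, acetylation of lysine 27 of histone H3, marks active promoters and enhancers. Enhancers usually lie away from gene starts and differ between cell types far more than promoters do. H3K27me3, trimethylation of the same lysine by Polycomb complexes that contain EZH2, marks silenced genes, and 1 histone tail cannot carry both modifications at this position.

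Every DKOITD H3K27ac library was deeper than every WT library, with 9435546 to 11458360 fragments after duplicate removal against 6515614 to 7072997. The DKOITD libraries had 8825 to 19532 peaks and the WT libraries 14326 to 22799. DKOITD53e and DKOITD83 had the fewest, at 8825 and 9112. DKOITD48, DKOITD53e and DKOITD83 had the smallest H3K27ac territories, 7.03 to 13.1 Mb against 20.4 and 23.8 Mb in the other DKOITD mice and 16.8 to 29.7 Mb in WT mice. With only DKOITD52 and DKOITD185 in the rule, 1147 regions met it, and they overlapped all 1117 members. A rule with fewer DKOITD mice is looser, so that overlap follows from the rule.

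The members spanned 336 to 10600 bp, with a median of 1732 bp, near the median of 1900 bp of the 10769 regions that all WT and at least 1 DKOITD mouse held. In the typical member, peaks covered 1463 bp in WT1, 848 bp in WT2 and 982 bp in WT3, or 93.0%, 51.6% and 61.3% of the region. In all 5 DKOITD mice together 1057 members (94.6%) had not 1 covered base, and 60 had a short stretch in at least 1 of them. DKOITD83 covered none, DKOITD53e touched 1 member and DKOITD48 touched 5, while DKOITD52 touched 33 and DKOITD185 touched 34. Those with most cover under the line were at Jun (9.99% of the region in 1 DKOITD mouse), Irf2bp2 (9.97%) and Rnf125 (9.91%). Just past the line, and so left out, were regions at Fam53b, Ldlrad4 and Evi5, the last 2 with 10.5%. On the WT side the members with the least cover in their weakest mouse were at Haao (10.1%), Fam53b and Prkcb, and regions at Gng12 (9.98%), Btrc (9.93%) and Elovl3 (9.90%) were left out. Of the 653 regions held by 3 WT mice and a single DKOITD mouse, that mouse was DKOITD52 in 336 and DKOITD185 in 291.

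The members were among the weaker peaks of WT2 and WT3, and near the middle rank of fold enrichment in WT1. Fold enrichment, the authors' ratio of a peak's signal to its local background, ranked the median peak on a member at percentile 49.3 of all peaks in WT1, 23.5 in WT2 and 32.0 in WT3. The median fold enrichment on members was 4.37 in WT1, 3.68 in WT2 and 3.82 in WT3, against 4.40, 4.64 and 4.49 for all peaks of those libraries. A −log10 q of 5 or more was reached by 18.2%, 1.83% and 4.61% of the peaks on members in WT1, WT2 and WT3, against 36.9%, 42.0% and 41.3% of all peaks. Only 6 members reached it in all 3 WT mice, and 889 (79.6%) in none. The count of members therefore depends on the peak threshold. With peaks of −log10 q at least 5 it was 83, which overlapped 6 of the 1117, and with the strongest 8825 peaks of every library it was 399, which overlapped 70 of the 1117. It was 2334 without WT2.

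**Figure D1:**
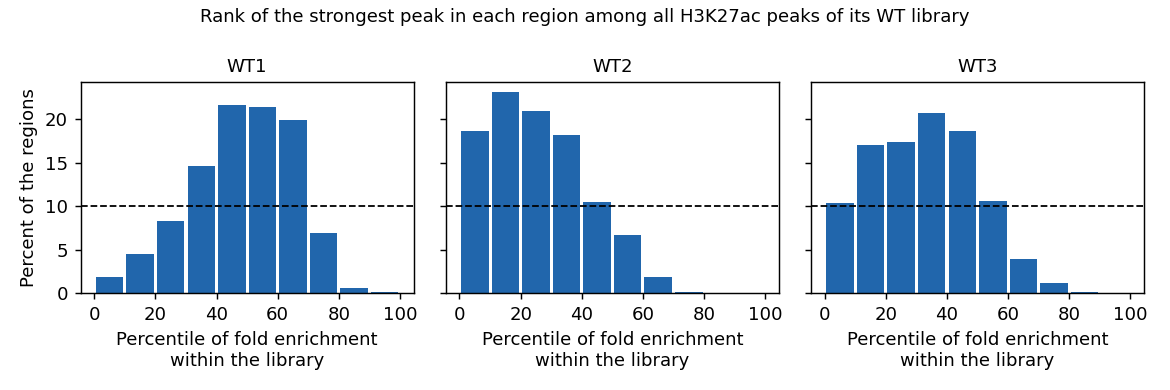
Percentile of fold enrichment of the strongest peak in each of the 1117 regions among all H3K27ac peaks of WT1, WT2 and WT3 (x axis), against the percent of the regions (y axis). The dashed line marks 10%, the height every bar would have if the regions were spread evenly over the ranks; most regions sit in the lower ranks of WT2 and WT3 and in the middle ranks of WT1.

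The members lay mainly away from gene ends. Within 1 kb of either end of a protein-coding gene lay 126 of 1117 (11.3%), inside a gene 573 (51.3%) and between genes 418 (37.4%). Of the regions that all WT and at least 1 DKOITD mouse held, 69.2% were at gene ends, 18.6% inside and 12.2% between genes, and of the 6521 held by all 8 mice 85.6% were at gene ends. Among all 32836 regions the share at gene ends was 31.3%. The median distance from a member to the nearest gene end was 15.3 kb, and 206 members (18.4%) were more than 50 kb from any. With the stricter peaks 33.7% of the 83 members and 86.7% of the regions also held in a DKOITD mouse were at gene ends. Members were found on all autosomes and on X, which held 10 of them (0.895%) and 1.81% of all regions.

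**Figure D2:**
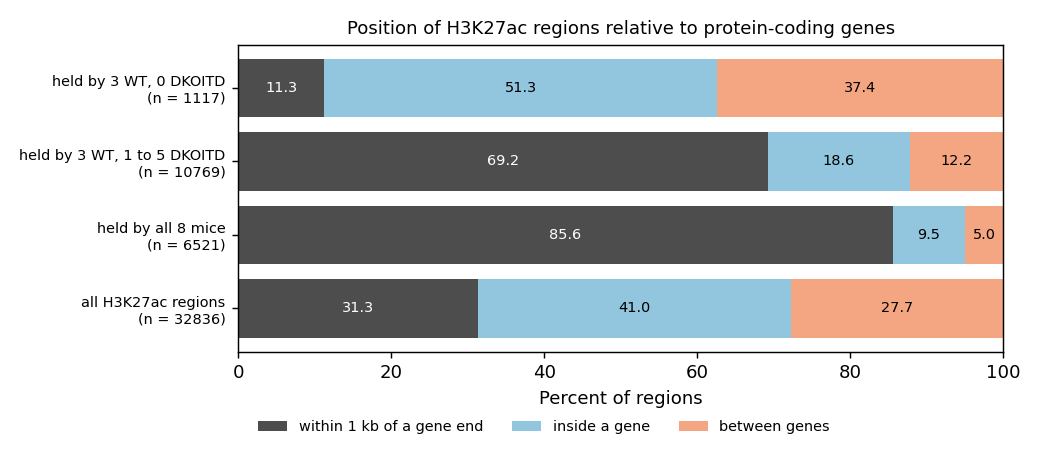
Percent of regions within 1 kb of a protein-coding gene end, inside a gene or between genes (x axis), for 4 sets of H3K27ac regions (rows). The regions held by 3 WT and 0 DKOITD mice have 11.3% at gene ends, against 69.2% of those held by 3 WT and 1 to 5 DKOITD mice.

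The ends of the same genes were often acetylated in all mice. The 991 members away from gene ends lay inside, within 1 kb of or nearest to 825 genes, and 370 of these (44.8%) carried H3K27ac at a gene end in all 8 mice, against 29.5% of all 21887 genes. A further 211 (25.6%) carried it at a gene end in no mouse, as did 10936 of all genes. Only 17 (2.06%) carried it at a gene end in 3 WT and 0 DKOITD mice, where the share of all genes was 0.461%. By mouse, the 825 genes were marked at an end in 49.1% to 65.5% of cases in DKOITD marrow and in 63.5% to 69.7% in WT marrow, and all genes in 33.4% to 45.3% and in 40.0% to 44.4%. The nearest H3K27ac peak of any DKOITD mouse was a median of 10.8 kb from a member, and 79 members (7.07%) had none within 100 kb. That median was 14.2 kb in DKOITD185 and 15.9 kb in DKOITD52, against 25.6 kb in DKOITD48, 40.3 kb in DKOITD83 and 43.1 kb in DKOITD53e.

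Some genes held several members. All members were assigned to 935 genes, or 4.27% of all genes, and 145 genes had 2 or more. Tnrc6b, which encodes a scaffold of microRNA silencing, had most, with 6 of the 8 regions that all WT mice held there. Those 6 summed to 0 kb of H3K27ac in every DKOITD mouse, against 18.5, 7.33 and 9.90 kb in WT1, WT2 and WT3. The ends of Tnrc6b (chromosome 15, 80711313 to 80941086) were acetylated in 5 of 5 DKOITD and 3 of 3 WT mice. Cpa6, a carboxypeptidase gene, had 5 members, which were all of its regions held in WT, with 0 kb in each DKOITD mouse against 10.6, 7.72 and 10.9 kb in the WT mice. The ends of Cpa6 carried the mark in no mouse of either genotype.

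Syne1, which encodes the nuclear envelope protein nesprin-1, had 4 members with 0 kb in each DKOITD mouse, against 11.8, 6.89 and 6.99 kb in WT1, WT2 and WT3. Its ends were marked in 0 DKOITD mice and 3 WT mice. The other genes with 4 members were Tbc1d8, Actn1 (the actin cross-linker alpha-actinin-1), Rreb1 (a zinc-finger transcription factor), Slco4a1 (an organic anion transporter), Itpr1 (a calcium channel of the endoplasmic reticulum), Arsb (a lysosomal sulfatase) and Pip5k1b (a phosphoinositide kinase). Summed over their members these 7 genes had 0 to 0.359 kb in each DKOITD mouse, against 4.22 to 10.8 kb in each WT mouse. Their ends were marked in 5 of 5 DKOITD mice at Tbc1d8 and Arsb, in 2 at Actn1, Slco4a1, Itpr1 and Pip5k1b, and in 1 at Rreb1, and in all 3 WT mice at each of the 7. The genes with most members thus included some whose ends were marked in all 5 DKOITD mice and some whose ends were not.

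Members also lay close together. Joined over gaps up to the distance commonly used to stitch enhancers, 158 members (14.1%) stood in groups of 2 to 4. The largest groups were 4 members over 32.5 kb inside Tbc1d8 (chromosome 1, 39437683 to 39470188) and 4 over 16.9 kb next to Slco4a1 (chromosome 2, 180430144 to 180447024). Of the 10 groups of 3, those with most covered bases lay at Cpa6 (chromosome 1, 10313597 to 10330006), at Rreb1 (chromosome 13, 37860990 to 37883009) and around Camp (chromosome 9, 109846763 to 109863508). Over the Camp group, H3K27ac covered 0 bp in each DKOITD mouse, against 9254, 4857 and 5676 bp in WT1, WT2 and WT3.

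Genes of late neutrophil granules and the S100 proteins had a member nearby in a higher percent of cases than the other 14 lists examined. Of 25 such genes, 15 (60.0%) had a member inside, within 1 kb or as the nearest gene within 50 kb, against 3.99% of all protein-coding genes and 6.77% of genes acetylated at an end in all 3 WT mice. The list was written with earlier results known, and Camp, S100a8, Wfdc21 and Itgb2l had been named in them. Among the other 21 genes 11 (52.4%) had a member. These genes had 17 members, of which 9 were at gene ends and 8 between genes. In WT marrow the 17 had a median of 1.87 kb covered, against 1.12 kb for all members, and 16 of the 17 had no covered base in any DKOITD mouse. The count of 15 was 15 with only DKOITD52 and DKOITD185 in the rule, which loosens it and so keeps the members. It was 4 at equal peak numbers (Itgb2l, Ngp, S100a8 and S100a9), where 1.70% of all genes had a member. Ngp was not among the 15. With the stricter peaks it was 1, S100a9, where 0.352% of all genes had a member. The member near S100a9 described below reached a −log10 q of 1.91 at most, so the stricter S100a9 region is a different one.

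**Figure D3:**
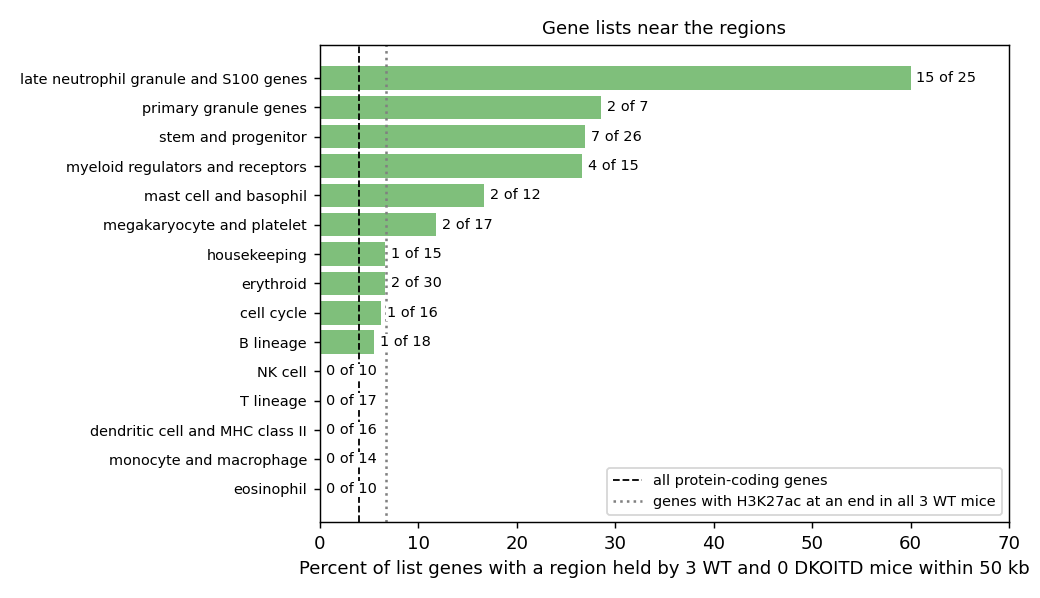
Percent of the genes of each list that had a region held by 3 WT and 0 DKOITD mice inside, within 1 kb or as nearest gene within 50 kb (x axis), by list (rows); labels give the counts. The late neutrophil list stands at 15 of 25 genes, against 3.99% of all genes (dashed line) and 6.77% of genes acetylated at an end in all 3 WT mice (dotted line).

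Camp, the gene of the antimicrobial peptide cathelicidin, had 3 members. The one over the gene (chromosome 9, 109846763 to 109850660) had 0 bp in each DKOITD mouse, against 3898, 3084 and 2477 bp in WT1, WT2 and WT3, and the other 2 lay 4480 and 10931 bp from the gene. S100a8 and S100a9 encode the paired calcium-binding proteins of calprotectin. The member at the end of S100a8 (chromosome 3, 90667622 to 90672577) had 0 bp in each DKOITD mouse and 4956, 2695 and 3097 bp in the WT mice. A second one, 4531 bp from S100a9, had 0 bp in each DKOITD mouse against 1834, 844 and 976 bp. The groups of mice did not overlap at any of these, as the rule requires.

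Itgb2l, which encodes an integrin beta chain of neutrophils, shared its member with Igsf5 (chromosome 16, 96438560 to 96444192), with 0 bp in each DKOITD mouse against 5633, 3305 and 3693 bp in the WT mice. Its nearest H3K27ac peak in any DKOITD mouse was 165 kb away. At Ltf, the gene of the iron-binding granule protein lactoferrin, a member of 5766 bp (chromosome 9, 111017347 to 111023112) had 393 bp in DKOITD52 and 0 bp in the other 4 DKOITD mice, against 4012, 1899 and 4222 bp in WT mice. Cd177, a neutrophil surface glycoprotein, had 0 bp in each DKOITD mouse against 3839, 1021 and 2142 bp. Retnlg, a resistin-like gene of granulocytes, had 0 bp against 1750, 2068 and 1150 bp. Among WT mice WT2 had the narrowest cover at Itgb2l, Ltf and Cd177, and WT3 at Retnlg.

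Receptors of neutrophils were represented by Fpr1, the formyl peptide receptor that senses bacterial products, with 0 bp in each DKOITD mouse and 3421, 658 and 1477 bp in WT1, WT2 and WT3 at 2213 bp from the gene. Clec4d, a C-type lectin receptor, had 0 bp against 2565, 472 and 2119 bp. Padi4, which citrullinates histones in neutrophil extracellular traps, had a member 3801 bp away, with 0 bp against 1032, 1076 and 1921 bp. Fcnb (ficolin B), Hp (haptoglobin), Anxa1 (annexin A1) and Wfdc21 had 0 bp in each DKOITD mouse and 462 to 4652 bp in each WT mouse. Cebpe encodes a transcription factor needed for the late granule genes. The member 2721 bp from it (chromosome 14, 54705465 to 54707642) had 0 bp in each DKOITD mouse against 1610, 2178 and 1831 bp in WT mice.

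At the ends of the same 25 genes H3K27ac was found at 2 in DKOITD48, 11 in DKOITD52, 0 in DKOITD53e, 1 in DKOITD83 and 5 in DKOITD185, against 23, 15 and 18 in WT1, WT2 and WT3. Whether the share of maturing neutrophils differed between the marrows, and its part in the members' absence, was not tested.

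Regulators and receptors of myeloid progenitors had 4 of 15 genes near members, namely Cebpe, Gfi1, Gfi1b and Myb. Gfi1 and Gfi1b encode related repressors of transcription that act in granulocyte and in erythroid and platelet development. Gfi1b had 2 members, with 0 bp in each DKOITD mouse, 1442, 382 and 1562 bp at the more distant one in WT1, WT2 and WT3 and 1653, 1048 and 2183 bp at the one 5901 bp from the gene. Gfi1 had 1, at 17207 bp, with 0 bp against 959, 391 and 556 bp. Myb, which keeps progenitors immature, had 1 inside the gene and 1 at 23385 bp from it. The more distant had 0 bp in each DKOITD mouse against 2855, 1441 and 2191 bp in WT mice. Of 7 primary granule genes, made at the promyelocyte stage, Ms4a3 and Prss57 had a member. Between 9 and 14 of the 15 regulators carried H3K27ac at a gene end in DKOITD mice and 12 or 13 in WT mice.

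Of 26 stem and progenitor genes 7 (26.9%) had a member, with 11 members in all: Erg, Fli1, Hlf, Kit, Lmo2, Myb and Runx1. Kit, the stem cell factor receptor on which WT marrow was selected, had a member at a gene end (chromosome 5, 75575046 to 75576885) with 0 bp in each DKOITD mouse, against 1769, 1013 and 1722 bp in WT mice. Runx1, the transcription factor gene that is floxed in all 8 mice, had 3 members inside it, at 92709499 to 92712498, 92726390 to 92727813 and 92795743 to 92797377 of chromosome 16. They summed to 0 kb in each DKOITD mouse, against 3.82, 2.77 and 3.14 kb in WT1, WT2 and WT3. They were 3 of 9 regions held in all WT mice at Runx1, whose ends were acetylated in 5 of 5 DKOITD and 3 of 3 WT mice. Whether they touch the floxed exon was not tested, since its position is not given in the sources used here.

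Erg and Fli1 encode related ETS transcription factors of blood stem cells. Erg had 2 members inside the gene, with 0 bp in each DKOITD mouse, against 966, 808 and 392 bp and 1804, 958 and 1627 bp in WT mice. Fli1 had 1 inside (chromosome 9, 32525970 to 32530932), with 0 bp against 4165, 657 and 1991 bp. Lmo2, a bridging protein of stem cell transcription complexes, had 1 at 22043 bp with 0 bp against 1624, 1032 and 1492 bp. Hlf, a transcription factor of stem cells, had 1 inside the gene, described with H3K27me3 below. DKOITD mice had 7 to 12 of the 26 genes marked at an end and WT mice 13 to 18, and the part of the CD117 selection was not tested.

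**Figure D4:**
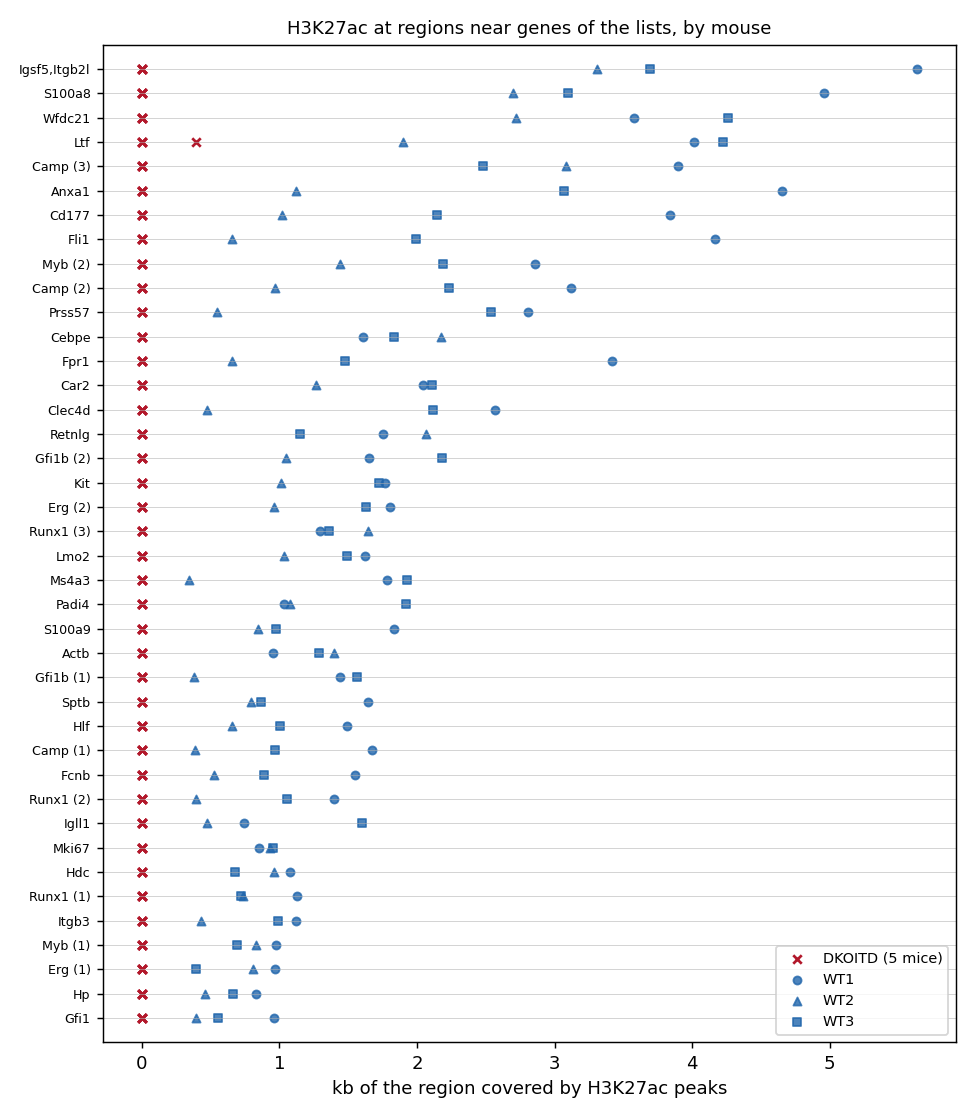
Length of each region covered by H3K27ac peaks (x axis, kb) at the 40 members near genes of the lists (rows, named by gene), with a red cross for each of 5 DKOITD mice and a blue symbol for each of 3 WT mice. DKOITD mice are at 0 except for 393 bp at Ltf, and WT mice differ among themselves up to several fold.

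Members near genes of other blood lineages were few in number. Of 30 erythroid genes, Car2 (carbonic anhydrase 2) and Sptb (the red cell spectrin beta chain) had a member, or 6.67%, close to the 6.77% of genes acetylated in WT. Hdc, which makes histamine, and Kit were the 2 of 12 mast cell and basophil genes (16.7%), and Itgb3 and Fli1 the 2 of 17 megakaryocyte genes (11.8%), both percentages above those of all genes and of genes acetylated in WT. Igll1, a surrogate light chain gene, was the 1 of 18 B lineage genes (5.56%). No member was near any of 17 T lineage, 16 dendritic cell and major histocompatibility complex class II, 14 monocyte and macrophage, 10 eosinophil or 10 NK cell genes. For comparison, 1 of 16 cell cycle genes (Mki67) and 1 of 15 housekeeping genes (Actb) had a member. Gene ends were acetylated at 5 to 8 of the erythroid genes in DKOITD mice and at 12 to 15 in WT mice, and at 10 to 13 of the dendritic cell and class II genes in DKOITD mice against 3 to 5 in WT mice.

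The most extended members were not at genes of these lists. The longest lay inside Gsr, the gene of glutathione reductase (chromosome 8, 33658741 to 33669340), with 1.10 kb in the DKOITD mice together and 10.6, 7.86 and 8.20 kb in WT1, WT2 and WT3, or 8.89 kb ± 1.49 (SD, n = 3). Next in WT mean came regions near Mogat2 at 5.62 kb ± 1.47 (SD, n = 3), inside Atxn10 at 5.58 kb ± 0.870 (SD, n = 3) and inside Igf1r, the insulin-like growth factor 1 receptor, at 5.55 kb ± 1.16 (SD, n = 3), each with 0 bp in every DKOITD mouse. Prkcb (protein kinase C beta), Cpa6, Abtb1, Bace1, Sgms2 (a sphingomyelin synthase) and Syne1 followed at 4.25 to 4.92 kb. Cover at Prkcb and Bace1 varied most between WT mice, from 1568 bp in WT2 to 8303 bp in WT1 at Prkcb.

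The members with the strongest peaks for their libraries were near Mcam (chromosome 9, 44126301 to 44128137), a cell adhesion gene, with fold enrichments of 11.4, 5.64 and 7.38 in WT1, WT2 and WT3, and at Plekhg1, with 9.13, 5.18 and 8.48. Dach1, a transcriptional cofactor gene, followed with 7.05, 5.45 and 7.19 at a region (chromosome 14, 98166653 to 98170228) whose nearest H3K27ac peak in any DKOITD mouse was 875 kb away. Cpa6, Rnf125, Ncam1, Jade1, Mogat2, Mmadhc and S100a8 completed the highest 10. Mcam was the only one of them with a mean percentile near 80, at 79.4.

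H3K27me3 was measured in other libraries of the same mice and was not used to choose the members. A region was held by it under the same rule of 10%. It held 12, 52, 10, 14 and 56 of the 1117 members in DKOITD48, DKOITD52, DKOITD53e, DKOITD83 and DKOITD185, or 1.07%, 4.66%, 0.895%, 1.25% and 5.01%. In WT1, WT2 and WT3 it held 23, 16 and 20, or 2.06%, 1.43% and 1.79%. DKOITD52 and DKOITD185 stood above all WT mice and the other 3 DKOITD mice below them. The means were 2.58% ± 2.07 (SD, n = 5) in DKOITD and 1.76% ± 0.314 (SD, n = 3) in WT marrow, and the spread within DKOITD exceeded this difference of 0.818 points (two-sided exact permutation p = 0.714, adjusted over 3 tests p = 0.714). Thus 1052 members (94.2%) were held by H3K27me3 in no mouse, though stretches below the 10% line can lie on them.

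The 3 DKOITD mice with low values also had little H3K27me3 in all, 3.17 to 5.24 Mb against 30.3 and 40.5 Mb in the other 2 and 13.8 to 27.3 Mb in WT mice. Relative to all other H3K27ac regions of the same library, the percent of members held was higher in 5 of 5 DKOITD mice, by 0.894 points ± 0.666 (SD, n = 5), and lower in 3 of 3 WT mice, at -1.42 points ± 0.346 (SD, n = 3). This difference of 2.31 points had a two-sided exact permutation p of 0.0357, the smallest that 3 and 5 mice allow, and did not pass after adjustment over 3 tests (adjusted p = 0.107). The other regions were held in 1.68% ± 1.45 (SD, n = 5) of cases in DKOITD and 3.18% ± 0.592 (SD, n = 3) in WT marrow, so both terms contributed. They include regions without H3K27ac in WT mice, such as 5292 held by 1 DKOITD and 0 WT mice. By the rule, the members carry H3K27ac in all 3 WT mice and in no DKOITD mouse. Since 1 histone tail cannot carry both marks, the rule bears on this comparison, and its part was not tested.

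Against regions that all WT and at least 1 DKOITD mouse held, the members had 0.798 points more H3K27me3 on average over 8 mice, and more in 6 of 8 (two-sided exact sign-flip permutation p = 0.0859, adjusted p = 0.129). The excess was 1.41 points ± 1.00 (SD, n = 5) in DKOITD and -0.230 points ± 0.304 (SD, n = 3) in WT marrow. That contrast between genotypes was added after the data were seen and had an exact permutation p of 0.0357, which was 0.393 with the stricter H3K27ac peaks and 0.536 with 50% H3K27me3 cover. By definition the compared regions carry H3K27ac in at least 1 DKOITD mouse and the members in none. The rule thus bears on comparisons with these regions, here and below, and its part was not tested. With the 1891 strongest H3K27me3 peaks of each library, members were held in 0.895% to 1.52% of cases in DKOITD and 0.358% to 0.716% in WT marrow. At that setting, but not at the others tried, all 3 planned tests passed, with exact permutation adjusted p of 0.0357 for the first 2 and 0.0234 for the third. With H3K27me3 peaks of −log10 q at least 5, members were held in 0.985% in DKOITD52 and 1.34% in DKOITD185 and in none of the other 6 mice.

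**Figure D5:**
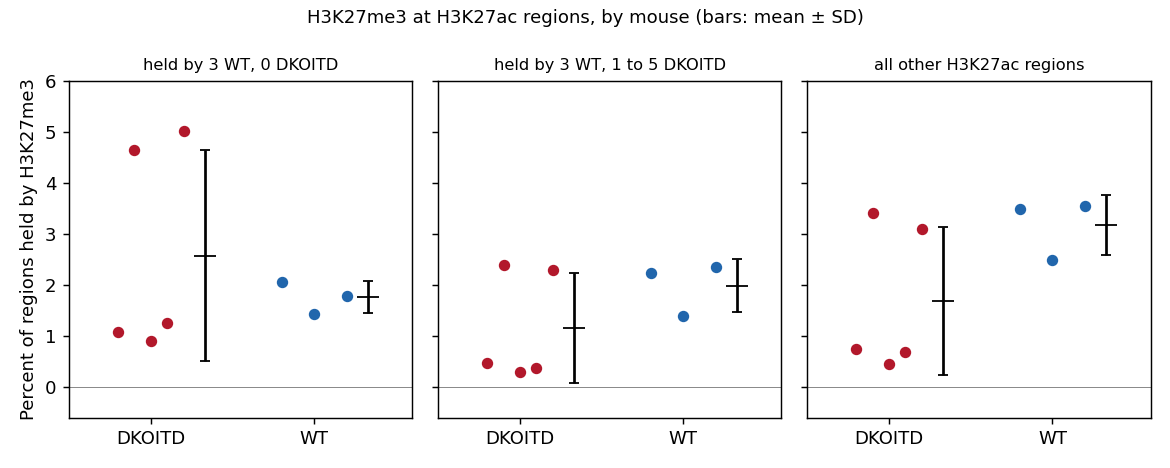
Percent of H3K27ac regions held by H3K27me3 (y axis) in each DKOITD mouse (red, n = 5) and WT mouse (blue, n = 3), with mean ± SD beside the points, for 3 sets of regions (panels). In the regions held by 3 WT and 0 DKOITD mice, DKOITD52 and DKOITD185 reach 4.66% and 5.01%, against 1.43% to 2.06% in WT mice.

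H3K27me3 held a higher percent of the members at gene ends than of the others. Of those 126, it held 6.35% to 26.98% in DKOITD mice and 8.73% to 13.5% in WT mice. Of the 7452 gene-end regions that all WT and at least 1 DKOITD mouse held, it held 0.282% to 2.80% and 1.61% to 2.75%. The percent was higher for the members in 8 of 8 mice, a comparison made after the data were seen and not tested. Of the 573 members inside genes it held 0.175% to 2.44% in DKOITD and 0.698% to 0.873% in WT mice, and of the 418 between genes 0 to 1.91% and 0.239% to 0.718%. Away from gene ends the comparison came out differently. Of regions inside genes that all WT and at least 1 DKOITD mouse held, H3K27me3 held 0.0498% to 1.395% in DKOITD and 0.797% to 1.49% in WT mice, so the members were higher in 5 of 5 DKOITD mice and lower in 3 of 3 WT mice. Of such regions between genes it held 0.534% to 1.68% in DKOITD and 1.07% to 1.76% in WT mice, and the members were lower in 7 of 8 mice, all but DKOITD185.

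By region, 36 members (3.22%) carried H3K27me3 in DKOITD mice only, 2 (0.179%) in WT mice only and 27 (2.42%) in both genotypes. Among all H3K27ac regions 1.2% carried it in DKOITD mice only and 1.32% in WT mice only. In 20 members it was in both DKOITD52 and DKOITD185 and in no WT mouse, a pattern of 0.408% of all regions, and none carried it in all 5 DKOITD mice without WT. Of these 20, 12 were at gene ends.

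Tuba8, Kit and Hlf were the members held by H3K27me3 in 3 or more DKOITD mice and no WT mouse, named here after their values were seen. At Tuba8, an alpha-tubulin gene, the region at the gene end (chromosome 6, 121210244 to 121212194) had 0, 1951, 266, 594 and 1951 bp of H3K27me3 in DKOITD48, DKOITD52, DKOITD53e, DKOITD83 and DKOITD185, and 0 bp in each WT mouse. Its H3K27ac covered 0 bp in each DKOITD mouse and 1262, 1257 and 1490 bp in WT mice. The Kit region had 0, 778, 0, 271 and 1353 bp of H3K27me3 in the same order of DKOITD mice and 0 bp in each WT mouse. At Hlf the region inside the gene (chromosome 11, 90387412 to 90388905) had 1216, 1494, 0, 0 and 1494 bp, and 0 bp in each WT mouse. Its H3K27ac covered 0 bp in each DKOITD mouse and 1494, 657 and 1005 bp in WT1, WT2 and WT3.

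Several members described above were among the 20. At S100a8 H3K27me3 covered 1149 bp in DKOITD52 and 1407 bp in DKOITD185, at Car2 1436 and 1116 bp, at Syne1 769 and 1240 bp, at Dach1 1994 and 3524 bp and at Rnf125 1087 and 1420 bp, with 0 bp in the other 3 DKOITD mice and in each WT mouse. Inhba, which encodes an activin subunit, had 2 such members.

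Members held by H3K27me3 in both genotypes had peaks of both marks within the region in at least 1 WT mouse. Overlap of the peaks of both marks inside a region was not measured. Foxd4, a forkhead transcription factor gene, had a member (chromosome 19, 24900015 to 24901126) that H3K27me3 covered over all 1112 bp in each of 5 DKOITD and 3 WT mice. Serpine2, a protease inhibitor gene, had 755 bp in each DKOITD mouse and 587, 755 and 416 bp in WT1, WT2 and WT3. The member shared by Amigo2 and Pced1b had 175 to 1058 bp in DKOITD and 231 to 262 bp in WT mice. Slc43a1 and Ppargc1a, a coactivator of mitochondrial genes, were held in 5 of 5 DKOITD and 2 of 3 WT mice. Sptb, Ache (acetylcholinesterase) and Cxadr were held in 4 of 5 DKOITD and 3 of 3 WT mice, and Tlcd4 in 3 of each. Bulk libraries cannot tell both marks in the same cells from a mixture of cells.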

How the data were processed

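H3K27ac and H3K27me3 ChIP-seq peak lists of 3 WT and 5 DKOITD mice were used; the human cell line lists were not used here. Per the submitters' processing notes, reads were aligned with Bowtie2 2.2.5 (mm10) and peaks called with MACS2 2.0.10. Per the file headers, MACS 2.0.10.20131216 was run per library in broad mode (q cutoff 0.05, at most 1 duplicate fragment kept), with the input of WT1 or of DKOITD48 as control for all mice of that genotype. The authors' deposited files give each peak's signal (fragment coverage), its fold enrichment as a ratio to local background, and the −log10 of its p-value and q-value; here they rank and filter the peaks of 1 library at a time. No absolute level of a mark can be read from them.

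H3K27me3 libraries held 2766339 to 6411696 fragments after duplicate removal. Overlapping or touching peaks were merged, and positions are 1-based mm10. Genes were the 21887 protein-coding genes of a RefSeq table of GRCm38.p6, the assembly behind mm10; it was used without strand, so both gene ends count. A gene end was marked when peaks covered 200 bp of its window of 1 kb either side. A region was assigned to genes within 1 kb, otherwise to the nearest.

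Percentages of regions held were compared over mice by two-sided exact permutation of the difference of means (56 assignments) or by sign flips (256), with Benjamini-Hochberg adjustment over 3 tests. Regions are not replicates, so no test was run across them. Members and the 15 gene lists (248 of 249 entries in the table) were chosen with earlier results of these data known. Regions named were the 10 with largest WT cover, the 10 with highest mean fold-enrichment percentile, up to 5 with H3K27me3 in most mice of each genotype, and those near list genes; genes named were the 10 with most members. The rule and the tests were checked on simulated data. Alternatives were the cover needed, stricter or equal numbers of peaks, wider merging, wider windows and leaving out mice. Python 3.11.15 with pandas 2.3.3 was used. Nothing in the labels pairs the DKOITD with the WT mice, and p-values measure the spread between these mice.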

Additional observations from a re-analysis of the deposited data

Results flagged for a closer look

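The percent of the 1117 regions held by H3K27me3, minus that of all other H3K27ac regions of the same library, was above 0 in every DKOITD mouse (0.330 to 1.90 points) and below 0 in every WT mouse (-1.75 to -1.06 points). The difference between genotypes was 2.31 points, with an exact permutation p of 0.0357, the smallest these numbers of mice allow, and an adjusted p of 0.107. The pattern of signs was not found in every setting. The value was above 0 in 3 of 5 DKOITD mice at equal H3K27ac peak numbers, in 2 of 5 with H3K27me3 peaks of −log10 q at least 5, in 4 of 5 with 50% H3K27me3 cover and in 4 of 5 when WT2 was left out. Total H3K27me3 territory, which ran from 3.17 to 40.5 Mb in DKOITD mice and from 13.8 to 27.3 Mb in WT mice, and the CD117 selection of WT marrow differ between these libraries, and their part in this difference was not tested. The rule also bears on it, since the members carry H3K27ac in every WT mouse and many of the other regions do not. Its part was not tested either. Over 25 per-mouse quantities of the DKOITD group, no single mouse stood apart from the other 4. That check looks for a lone value and cannot flag mice that stand apart together. H3K27me3 held 4.66% and 5.01% of the regions in DKOITD52 and DKOITD185, against 0.895% to 1.25% in the other DKOITD mice.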

How the results depend on the processing

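The count of 1117 regions was 83 with H3K27ac peaks of −log10 q at least 5, 399 at equal H3K27ac peak numbers, and 1119 to 2334 when single mice were left out, the highest without WT2. It stayed within 1.5 times for any overlap, 50% cover, merging over 500 bp and without DKOITD48, DKOITD53e and DKOITD83 together. Leaving mice out loosens the rule, so a count of regions or genes that does not fall there follows from the rule. At 50% cover 899 regions met the rule, 368 of them among the 1117. The percent at gene ends, 11.3, was 32.6 at 50% cover, 33.7 with the stricter H3K27ac peaks, 27.6 at equal H3K27ac peak numbers, 15.8 with windows of 2.5 kb, 21.0 with all genes of the table, and 9.81 to 13.2 when single mice were left out. In each of these settings it was below that of regions also held in DKOITD marrow, which ran from 64.3 to 86.7. The count of 15 late neutrophil genes was 10 at 50% cover and 15 to 18 when single mice were left out. Of those at 50% cover, Chil3, Ltb4r1 and Ngp were not among the 15.

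The DKOITD minus WT difference in H3K27me3 at the regions, 0.818 points, was 0.519 and passed at equal H3K27me3 peak numbers. It did not pass in the other settings, at 2.25 with the stricter H3K27ac peaks, 0.376 with 50% H3K27me3 cover and 0.466 with H3K27me3 peaks of −log10 q at least 5. Without DKOITD48, DKOITD53e and DKOITD83 together it was 3.18. There the exact permutation p was 0.2, the smallest that the remaining mice allow, so it could not pass. When single mice were left out the difference ran from 0.190 (without DKOITD185) to 1.24. The same difference relative to other regions, 2.31 points, was 0.816 and passed at equal H3K27me3 peak numbers. It did not pass at 0.311 with the stricter H3K27me3 peaks (exact permutation, adjusted p = 0.214), 1.48 with 50% H3K27me3 cover, 4.25 with the stricter H3K27ac peaks or 3.54 at equal H3K27ac peak numbers (adjusted p = 0.0536 in each of these 3), and ran from 1.98 to 2.41 when single mice were left out. The excess over regions also held in DKOITD marrow, 0.798 points, passed at 1.27 with 50% H3K27ac cover, 3.45 with the stricter H3K27ac peaks, 1.18 at equal H3K27ac peak numbers, 0.769 with 50% H3K27me3 cover and 0.520 at equal H3K27me3 peak numbers, and ran from 0.119 to 1.12 when single mice were left out, the lowest without WT2. It was 0.0573 for H3K27me3 within 5 kb of the region (exact sign-flip permutation, adjusted p = 0.914) and 0.120 with the stricter H3K27me3 peaks (adjusted p = 0.714). The cause of these shifts was not tested, nor was the part of the rule in this excess. With 4 DKOITD or 2 WT mice an exact permutation p cannot fall below 0.0571 or 0.0952, so the differences between genotypes could not pass there. No paired analysis was possible because the WT and DKOITD mice share no replicate numbers. Weak or narrow peaks can be missed at low enrichment. Depth was lower in WT H3K27ac libraries than in DKOITD libraries. The parts of enrichment and depth in the absence of peaks were not tested.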
